A study of Rattus norvegicus with 60 samples.

Results

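The 40 genes described here lie on rat chromosome 4 around the stretch from Akr1b1 to Ppm1k, and were taken by gene symbol from a list of genes of that stretch that leaves out those already reported to differ between the lines. The arrays hold 14217 named genes in all. In the reference gene order 36 of them lie between Akr1b1 and Ppm1k and 4 lie beyond Ppm1k (Abcg2, Herc3, Nap1l5 and Fam13a). Of the 40 genes, 35 have a probe set named for them alone on the array, 61 probe sets in all. The symbols Braf, Epha1, Zc3hav1 and Slc37a3 are not in the probe table used here, and Cbx3 appears only in a probe set with several symbols. A filter on mean signal (at least 7.68 log2 units over all arrays) was passed by 47 of the 61 probe sets, from 30 genes. Creb3l2, Parp12, Ezh2, Pde1c and Fam13a were measured but have no probe set past that filter, so they were not tested.

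The arrays compare adult rats of the NP line, selected for not preferring alcohol, with adult rats of the congenic line NP.P. A congenic line carries a chromosome segment of another line, here the alcohol-preferring P line, on the background of its recipient, and expression differences at genes of the segment are what such a comparison is made to find. Nucleus accumbens, amygdala, frontal cortex, hippocampus and striatum were dissected from each of 6 NP and 6 congenic animals, and each of the 60 RNA samples was hybridized to its own Affymetrix array. No treatment, and neither sex nor exact age, is named in the labels, and there is 1 congenic line, so effects of the segment and other differences between the colonies cannot be told apart.

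Genes that sit side by side on a chromosome need not share a function, and these 40 do not form a pathway. They include receptors and adaptors of cell signalling, histone and transcription factors, RNA-processing proteins, ubiquitin ligases, actin regulators and mitochondrial proteins. In a congenic brain, a gene of the segment can carry sequence variants of the donor line in its own control regions, and it is also transcribed in a setting where its neighbours come from the donor line.

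The region labels were set against marker genes. Of 7 tested markers of medium spiny neurons, the main neurons of the striatum, 7 were higher in striatum and 6 in accumbens, and 7 were lower in frontal cortex. Of 5 tested markers of cortical excitatory neurons, 4 were higher in frontal cortex, but 3 were also higher in striatum. In hippocampus 2 of them were higher and 3 lower. Higher in their own region were 2 of 3 hippocampal markers and 2 of 2 amygdala markers. Among the 60 arrays, 7 stood apart from the other arrays of their labelled region. The accumbens array of NP animal 8 correlated best with the hippocampal profile (0.655) and its hippocampus array with that of accumbens (0.388). The amygdala array of congenic animal 3 correlated best with the hippocampal profile (0.699) and its hippocampus array with that of amygdala (0.742). The others were accumbens of congenic animal 9, amygdala of NP animal 6 and hippocampus of NP animal 11. No label was changed. Some results that rest on these arrays are given with and without them, and the other results include all arrays. The mean over the 5 regions of an animal does not depend on which region each of its arrays is assigned to.

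None of the 47 tested member probe sets differed between the lines in the mean over regions at an adjusted p under 0.05 (limma, Benjamini-Hochberg over all 18625 probe sets), where 23 of all probe sets, or 0.123%, did. At an unadjusted p under 0.05 there were 5 member probe sets of 47 (10.6%), against 992 of all (5.33%). Without the 7 arrays there were 8 member probe sets. The share of all probe sets was not counted there, so the 8 cannot be set against the 5.33%. That no member was called follows in part from how the list was drawn up, since genes already called in these data were left off it. Of the 61 member probe sets, 31 were higher and 30 lower in the congenic line (50.8% higher, against 53.5% of all probe sets). The median difference was 5.69e-05 log2 units, against 0.00294 over all probe sets, and the median size of the difference was 0.0289 against 0.0245.

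The precision behind this was narrow for most members. For 42 of the 47 tested probe sets the 95% confidence interval of the line difference lay wholly within a change of 1.2-fold in either direction (0.263 log2 units), as it did for 96.2% of all probe sets. The other 5 intervals reached further, and belong to Hipk2, Ubn2, Chn2 (1368675_at) and the Mtpn probe sets 1387785_at and 1387786_at. For these a change of more than 1.2-fold lies within the interval.

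**Figure D1:**
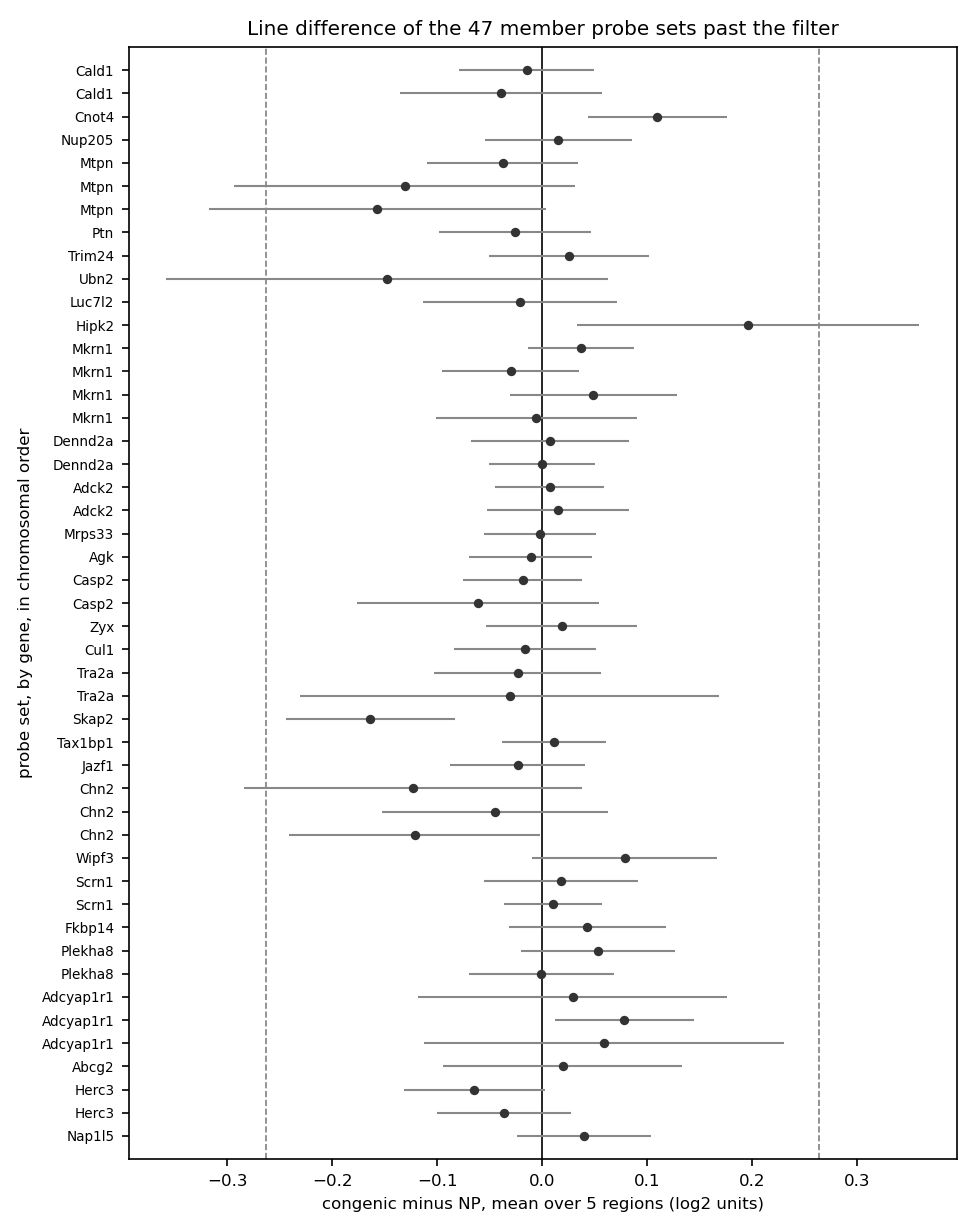
Congenic minus NP in the mean over 5 regions (log2 units, x axis) for the 47 member probe sets past the filter, in chromosomal order (y axis), as points with 95% confidence intervals from limma (6 animals against 6). Dashed lines mark a 1.2-fold change in either direction, and 42 of the 47 intervals lie between them.

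Several members lie next, in the order of tested genes, to genes that were called. In the same stretch 68 other genes were tested, with 93 probe sets, and 10 of these genes were called, 6 higher and 4 lower in the congenic line. Ppm1k, a mitochondrial phosphatase, was lower by the largest amount among them (1394939_at, -1.22 ± 0.07 SE, limma adjusted p = 2.39e-07). The other called Ppm1k probe set, 1388778_at, differed by less, at -0.31 ± 0.03 (limma adjusted p = 0.000209). Abcg2, the neighbour of Ppm1k and an efflux transporter of the blood-brain barrier, differed by 0.02 ± 0.05, with an interval from -0.09 to 0.13. Stmp1 was higher by 0.38 ± 0.05 (limma adjusted p = 0.00295), while the next member, the nuclear pore gene Nup205, differed by 0.02 ± 0.03, with an interval from -0.05 to 0.09. Creb5 was lower, at -0.38 ± 0.05 (limma adjusted p = 0.00177), and beside it Jazf1, a zinc finger protein, differed by -0.02 ± 0.03. Dgki was higher by 0.25 ± 0.03 (limma adjusted p = 0.00247), and beside it Ptn, the secreted growth factor pleiotrophin, differed by -0.03 ± 0.03. The other 4 members beside a called gene were Cul1, at -0.02 ± 0.03 beside Pdia4 (0.21 ± 0.04), Cald1, at -0.04 ± 0.04 between Bpgm (0.14 ± 0.02) and Wdr91 (-0.19 ± 0.03), Cnot4 and Mtpn. Cnot4, at 0.11 ± 0.03, was opposite in sign to its neighbour Wdr91, and Mtpn (1387786_at), at -0.16 ± 0.07, to its neighbour Fam180a (0.33 ± 0.05). That members differ less than called neighbours follows from the choice of both and is given as a description.

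Among the signalling genes, 8 of 10 were measured and 0 of their 11 tested probe sets were called. Skap2, an adaptor protein of Src-family kinases, had the smallest p of all members. Its animal means ran from 8.78 to 8.97 with a median of 8.93 log2 units in NP, and from 8.62 to 8.78 with a median of 8.76 in the congenic line. The lowest NP animal and the highest congenic animal both round to 8.78, and the lines did not overlap. The difference was -0.16 ± 0.04 (95% interval -0.24 to -0.08, unadjusted p = 0.00062, limma adjusted p = 0.304), and it was negative in 5 of 5 regions. Non-overlapping animal means were found for 2 member probe sets of 47, Skap2 and Cnot4, and for 61 of all 18625 (0.328%). Without the 7 arrays there was 1 such member probe set, and the share of all probe sets was not counted.

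Hipk2, a kinase of stress and apoptosis signalling, had the largest positive difference of all members. Its animal means ran from 9.62 to 9.95 (median 9.79) in NP and from 9.79 to 10.26 (median 9.97) in the congenic line, so the lines overlapped. The difference was 0.20 ± 0.08 (limma adjusted p = 0.911), positive in 5 of 5 regions and widest in accumbens, at 0.39 ± 0.14. Adcyap1r1, the receptor of the neuropeptide PACAP, differed by 0.08 ± 0.03 (1374681_at, limma adjusted p = 0.911), with animal means from 11.77 to 11.89 in NP and from 11.85 to 11.95 in the congenic line. In striatum its 3 tested probe sets differed by 0.15, 0.12 and 0.13, with unadjusted p of 0.006, 0.0426 and 0.0404, and none was called there. In frontal cortex they differed by 0.06, -0.16 and -0.12. Chn2, which encodes the Rac regulator beta-chimaerin, differed by -0.05, -0.12 and -0.12 in its 3 tested probe sets. The difference of 1394833_at was -0.12 ± 0.06, and -0.06 ± 0.05 without the 7 arrays.

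Of the RNA-handling genes, 4 of 5 were measured, and 0 of 5 probe sets were called. Cnot4, the ubiquitin ligase of the CCR4-NOT deadenylation complex, had animal means from 9.88 to 9.94 (median 9.93) in NP and from 9.96 to 10.14 (median 10.02) in the congenic line. The lines did not overlap, and the difference was 0.11 ± 0.03 (limma adjusted p = 0.700). The accumbens array of congenic animal 9, one of the 7 that stood apart, read 10.87 for Cnot4, above the other 11 accumbens arrays. Without the 7 arrays the difference was 0.08 ± 0.03. The splicing factors Tra2a and Luc7l2 and the pore component Nup205 differed by between -0.03 and 0.02.

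**Figure D2:**
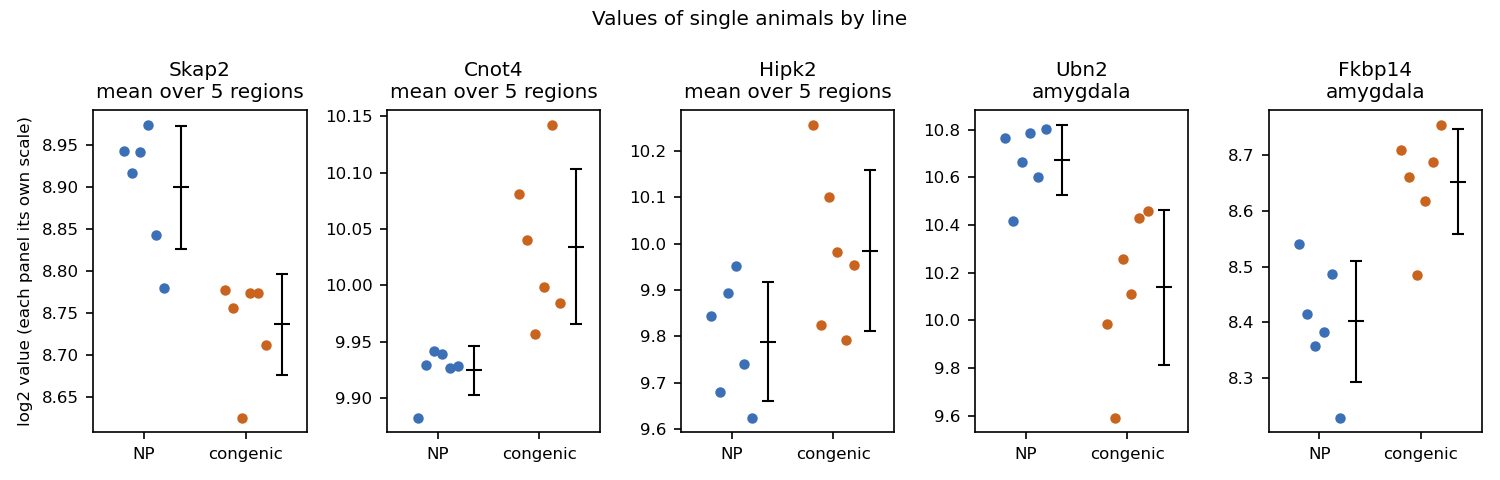
Log2 values of single animals (y axis, each panel on its own scale) in the NP and the congenic line, as the mean over 5 regions for Skap2, Cnot4 and Hipk2 and in amygdala for Ubn2 and Fkbp14. Bars give the mean and SD of 6 animals, and only Skap2 and Cnot4 show lines that do not overlap in the mean over regions.

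Among the transcription and chromatin genes, 6 of 7 were measured and 0 of 4 tested probe sets were called. Ubn2, a partner of the HIRA histone chaperone, had the widest interval of all members and the smallest p for an interaction of line and region. In amygdala its arrays ran from 10.42 to 10.80 (median 10.71) in NP and from 9.59 to 10.46 (median 10.19) in the congenic line. The difference there was -0.53 ± 0.13 (unadjusted p = 0.00106, limma adjusted p = 0.349). In frontal cortex it was -0.53 ± 0.20, in striatum -0.09 ± 0.09, in accumbens 0.17 ± 0.24 and in hippocampus 0.25 ± 0.22. Without the 7 arrays the hippocampal value turned to -0.06 ± 0.09, the accumbens value was 0.35 ± 0.21, and the amygdala value became -0.61 ± 0.14 (limma adjusted p = 0.144). The interaction of line and region had an unadjusted p of 0.0164 for Ubn2 and an adjusted p of 0.998, and 0.368 without the 7 arrays (limma F test). No probe set of the array was called for the interaction (0% of 18625), with 694 at an unadjusted p under 0.05 (3.73%), of which Ubn2 was the 1 member. There were 4 members with such a p when the 7 arrays were left out, Ubn2, Jazf1, Cnot4 and Fkbp14, with adjusted p from 0.368 to 0.586 (limma F test). The share of all probe sets was not counted on the remaining arrays, so these 4 cannot be set against the 3.73%.

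Among the transport and endomembrane genes, 3 of 4 were measured and 0 of 4 tested probe sets were called. Fkbp14, a prolyl isomerase of the endoplasmic reticulum, had the second smallest p of a member in any single region, again in amygdala. Its amygdala arrays ran from 8.23 to 8.54 (median 8.40) in NP and from 8.49 to 8.75 (median 8.67) in the congenic line, and overlapped. The difference was 0.25 ± 0.06 (limma adjusted p = 0.358, and 0.125 without the 7 arrays), against values between -0.09 and 0.07 in the other 4 regions. In the same amygdala arrays the mean level of 7 medium spiny neuron markers differed by -0.74 log2 units between the lines, and ranged from -1.56 to 1.39 over arrays. The part of these markers in the amygdala values of Ubn2 and Fkbp14 was not tested.

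Of the cytoskeletal and secretory genes 5 of 5 were measured, and 0 of 9 tested probe sets were called. Mtpn encodes myotrophin, which binds the actin-capping protein, and its differences depended on the arrays kept. Its probe sets 1387785_at and 1387786_at differed by -0.13 ± 0.08 and -0.16 ± 0.07, and in accumbens the lowest congenic arrays read 8.88 and 8.61, against medians of 11.07 and 11.21. Without congenic animal 9 the difference of 1387786_at was -0.08. Without the 7 arrays the differences were -0.07 ± 0.03 and -0.07 ± 0.04. The probe set of highest signal, 1383071_at, differed by -0.04 ± 0.03, and by 0.02 ± 0.03 without those arrays. Wipf3, which binds the actin regulator N-WASP, differed by 0.08 ± 0.04 and by 0.09 ± 0.03 without the 7 arrays.

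The ubiquitin and cell fate group had 6 of 6 genes measured and 0 of 10 tested probe sets called, and the mitochondrial group 3 of 3 and 0 of 4. Herc3, a HECT-family ubiquitin ligase, differed by -0.06 ± 0.03 in its probe set 1380046_at, with a negative sign in 5 of 5 regions, and by -0.04 ± 0.03 in 1389164_at. Cul1, the scaffold of SCF ubiquitin ligases, differed by -0.02 ± 0.03. Adck2, Mrps33 and Agk, which act in mitochondria, differed by between -0.01 and 0.01.

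In single regions no member was called in accumbens (background 0.00537%), amygdala (0.0322%), frontal cortex (0.0537%), hippocampus (0.00537%) or striatum (0.0644%), by limma with adjustment over all probe sets. At an unadjusted p under 0.05 there were 2 of 47 member probe sets in accumbens (4.26%, against 1.97% of all), 4 in amygdala (8.51% against 5.96%) and 4 in frontal cortex (8.51% against 6.38%). There were 0 in hippocampus (against 3.95%) and 6 in striatum (12.8% against 4.86%). The counts without the 7 arrays were 2, 3, 4, 5 and 6 in the same order. The shares of all probe sets were not counted on the remaining arrays, so these counts cannot be set against the percentages above. The 5 in hippocampus were probe sets of Plekha8, Cnot4, Mtpn, Herc3 and Tra2a, each with a limma adjusted p of 0.631. The smallest adjusted p of a member was 0.349 in amygdala, 0.586 in frontal cortex, and above 0.92 in the others. In frontal cortex that p belonged to Mtpn (1387786_at), at -0.19 ± 0.05.

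**Figure D3:**
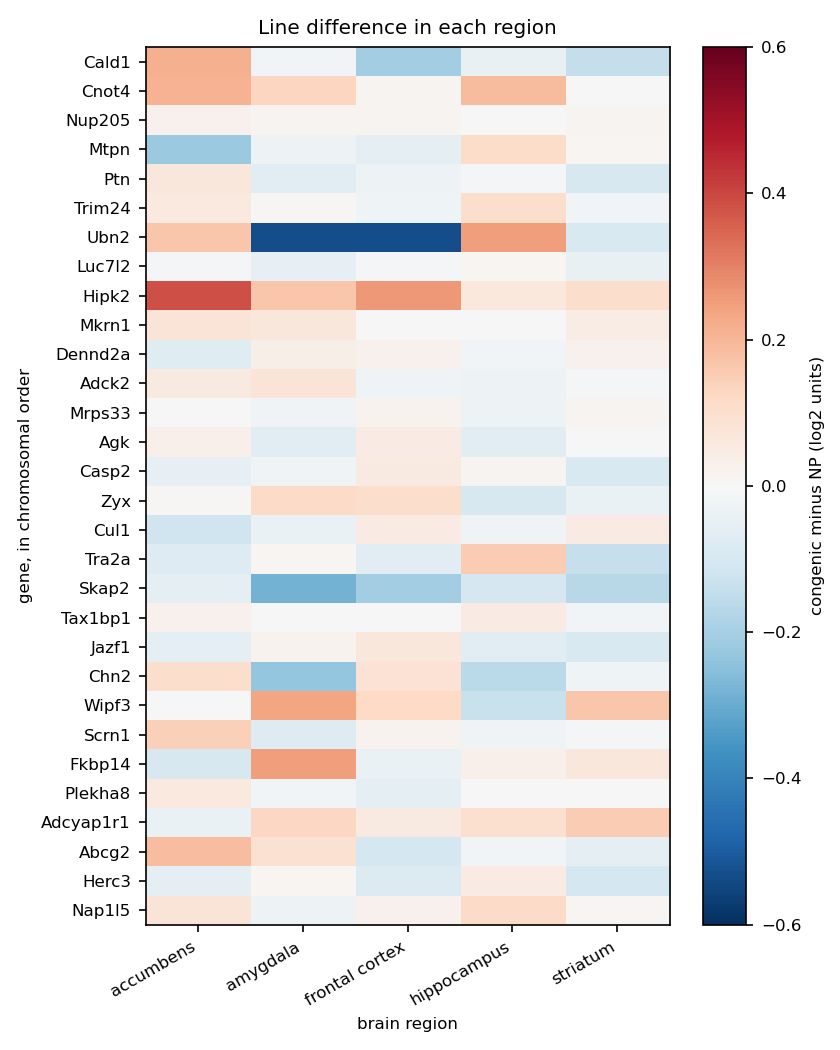
Congenic minus NP in each region (colour, log2 units, 6 arrays against 6) for the probe set of highest signal of the 30 genes past the filter, in chromosomal order. The deepest values are those of Ubn2 in amygdala and frontal cortex, both -0.53, and Hipk2 is positive in all 5 regions.

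Where a gene has several probe sets past the filter, they can be set against each other. There were 12 such genes, with 23 pairs of probe sets, of which 17 had line differences of the same sign. Across the 60 arrays the pairs correlated at a median r of 0.475, given as a description since the arrays share regions and animals. The Mtpn pair 1387785_at and 1387786_at reached 0.977 and the Chn2 pair 1368675_at and 1394833_at 0.892. The lowest were the Tra2a pair at -0.08, 2 of the Mkrn1 pairs at -0.005 and 0.01, and the Plekha8 pair at 0.03.

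The members differed far more between regions than between lines. Between the 5 regions 43 of the 47 tested probe sets differed (91.5%, from 29 genes; limma F test, adjusted p under 0.05), against 93.4% of all probe sets, so that the members changed about as often as the array as a whole. Cnot4 was the 1 tested gene without a called probe set (limma F test, adjusted p = 0.166). Without the 7 arrays, among them the accumbens array that read 10.87, Cnot4 stood lower in accumbens than in the other 4 regions, at -0.23 ± 0.04 (limma adjusted p = 5.86e-07), against -0.14 ± 0.06 with all arrays. Each region was then compared with the mean of the other 4. Of the 47 member probe sets, 16 were higher in accumbens (background 23.5%) and 10 lower (39.2%), and in amygdala 9 were higher (29.4%) and 7 lower (18.8%). In frontal cortex 8 were higher (35.8%) and 19 lower (40.4% of the members, background 25.8%), in hippocampus 10 were higher (33.2%) and 10 lower (21.4%), and in striatum 12 were higher (26.3%) and 14 lower (43.5%). In such bulk tissue, fewer cells of a type and less RNA per cell cannot be told apart.

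**Figure D4:**
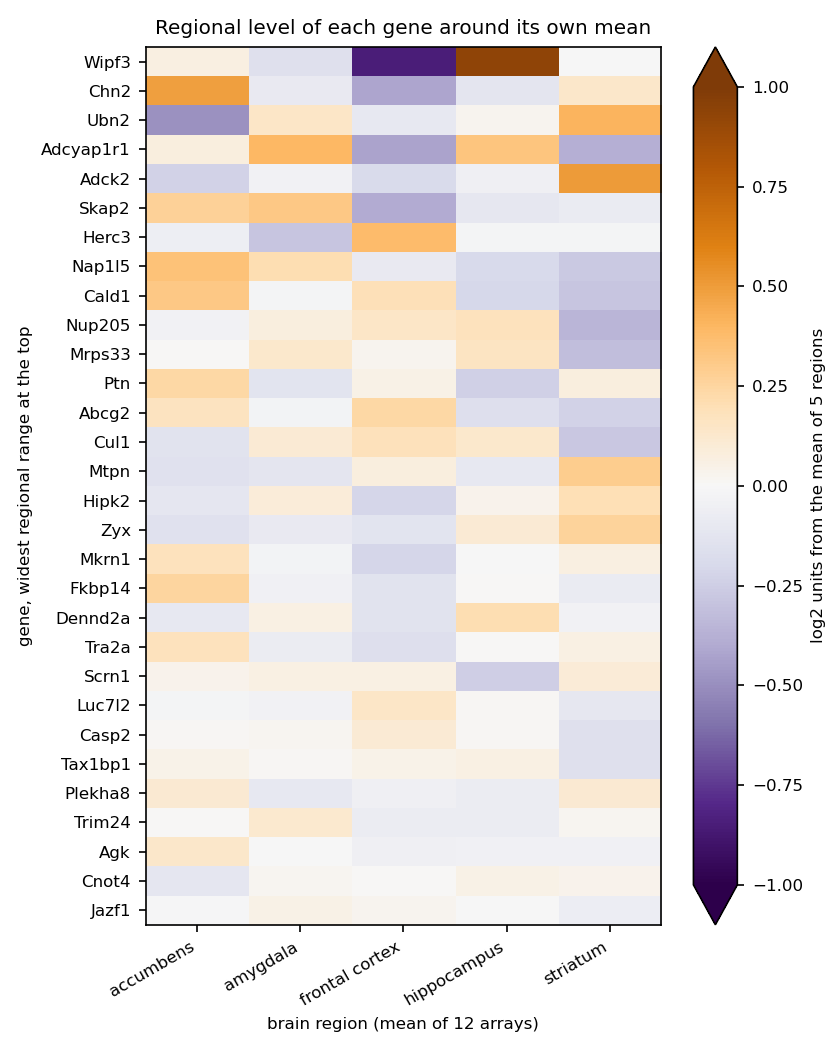
Mean of 12 arrays in each region minus the gene's own mean over the 5 regions (colour, log2 units) for the 30 genes past the filter, with the widest regional range at the top. Wipf3 has the widest range, 1.78 log2 units, and Jazf1 the narrowest, 0.12.

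Wipf3, Adcyap1r1, Chn2 and Skap2 had the widest regional ranges among the 10 of 30 tested genes with their lowest mean in frontal cortex, and their promoters are shown for that reason, a choice made after their values were seen. The others were Hipk2, Mkrn1, Dennd2a, Fkbp14, Tra2a and Agk. The share of all genes on the array with their lowest mean in frontal cortex was not counted, so the 10 of 30 has no background beside it. Each window holds 250 bases before and 50 after the gene's start, from RefSeq on GRCr8, 5′ to 3′ on the gene's strand, at chr4:84880545-84880844 (plus strand), chr4:85923921-85924220 (plus), chr4:84478739-84479038 (plus) and chr4:82431470-82431769 (minus), in that order. Capitals mark matches to the GC box, GGGCGG on either strand.
Wipf3: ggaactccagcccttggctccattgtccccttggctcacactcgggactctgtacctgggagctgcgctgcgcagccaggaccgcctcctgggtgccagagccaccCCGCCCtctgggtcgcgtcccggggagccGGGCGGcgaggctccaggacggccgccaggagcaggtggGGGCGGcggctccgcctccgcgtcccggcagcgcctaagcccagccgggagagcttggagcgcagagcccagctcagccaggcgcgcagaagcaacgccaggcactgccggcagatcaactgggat
Adcyap1r1: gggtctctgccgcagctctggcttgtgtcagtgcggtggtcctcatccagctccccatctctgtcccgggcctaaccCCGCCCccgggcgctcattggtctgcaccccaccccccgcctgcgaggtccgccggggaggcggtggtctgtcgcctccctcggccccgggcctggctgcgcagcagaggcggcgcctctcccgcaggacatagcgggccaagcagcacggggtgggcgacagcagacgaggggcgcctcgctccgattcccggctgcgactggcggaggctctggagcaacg
Chn2: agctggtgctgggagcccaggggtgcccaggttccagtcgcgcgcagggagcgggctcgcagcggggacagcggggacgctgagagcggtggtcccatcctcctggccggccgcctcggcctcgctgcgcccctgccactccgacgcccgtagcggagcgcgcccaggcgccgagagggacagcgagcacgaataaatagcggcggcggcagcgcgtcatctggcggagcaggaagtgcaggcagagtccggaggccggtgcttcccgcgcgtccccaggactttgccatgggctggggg
Skap2: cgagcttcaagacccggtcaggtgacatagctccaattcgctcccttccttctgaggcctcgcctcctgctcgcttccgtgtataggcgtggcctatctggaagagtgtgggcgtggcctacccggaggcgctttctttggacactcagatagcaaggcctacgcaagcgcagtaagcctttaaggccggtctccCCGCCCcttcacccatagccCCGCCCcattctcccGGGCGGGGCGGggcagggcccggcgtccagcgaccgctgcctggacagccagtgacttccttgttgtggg

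The windows hold 3, 1, 0 and 4 GC boxes, and 1 pair in Skap2 overlaps by a base. A GC box was present in 29 of the 40 windows found for 38 members and in 33.1% of 33469 windows of the table. The windows are rich in G and C, at 72.3%, 73.0%, 73.3% and 64.0%, against a median of 51.7% over all windows. None of the 4 windows holds a TATAAA, which 14.2% of all windows do. No window was found for Jazf1 or Tra2a.

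Wipf3 had the widest regional range of the members. Its hippocampal arrays ran from 10.92 to 12.90 with a median of 12.25, and its frontal cortex arrays from 10.07 to 10.57 with a median of 10.39. Hippocampus stood above the mean of the other 4 regions by 1.17 ± 0.11 (limma adjusted p = 1.29e-12) and frontal cortex below by -1.06 ± 0.11 (7.32e-12), and the ends of the range lay 3.43-fold apart. The 2 lowest hippocampal Wipf3 values, 10.92 and 11.34, came from congenic animal 3 and NP animal 8, and the highest amygdala value, 12.37, from congenic animal 3. Without the 7 arrays the hippocampus ran from 12.18 to 12.58, above every remaining array of the other regions, and the difference was 1.38. Of the choroid plexus markers, 2 of 2 tested were also higher in hippocampus, where their mean level ranged from -1.17 to 4.17 around the mean of all arrays. So were 5 of 5 astrocyte, 4 of 5 oligodendrocyte and 2 of 3 hippocampal neuron markers, while 7 of 7 medium spiny neuron markers were lower. Lower in frontal cortex were 3 of 5 astrocyte, 4 of 5 oligodendrocyte and 1 of 2 choroid plexus markers. Of the hippocampal neuron markers 1 was lower there and 1 higher. The part of these markers in the Wipf3 value was not tested.

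By its probe set of highest signal, Chn2 was highest in accumbens and lowest in frontal cortex. Its accumbens arrays ran from 10.60 to 11.63 (median 11.42) and those of frontal cortex from 10.23 to 10.76 (median 10.45), by 1376800_at. Accumbens was higher than the other 4 regions by 0.61 ± 0.08 (limma adjusted p = 5.46e-10) and frontal cortex lower, at -0.52 ± 0.08. With all arrays 1394833_at was also highest in accumbens, but 1368675_at was highest in striatum. Without the 7 arrays both were highest in accumbens. Their lowest level was in frontal cortex with and without those arrays. Of the medium spiny neuron markers, 6 of 7 were also higher in accumbens and 7 of 7 lower in frontal cortex. In striatum 7 of 7 were higher and in hippocampus 7 of 7 lower. The median of their mean level was higher in striatum (1.80) than in accumbens (1.03), unlike the level of Chn2 by 1376800_at. Their mean level ranged from -1.68 to 1.27 over accumbens arrays and from -1.47 to -1.21 over those of frontal cortex, and their part in the level of Chn2 was not tested.

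By its probe set of highest signal, 1374681_at, Adcyap1r1 was high in amygdala and hippocampus and low in frontal cortex and striatum. In striatum its probe sets disagreed, at -0.47 ± 0.03 for 1374681_at against 0.19 ± 0.09 for 1368729_a_at and 0.17 ± 0.11 for 1387302_at. By 1374681_at its amygdala arrays ran from 11.94 to 12.41 (median 12.33), those of hippocampus from 12.05 to 12.37 (median 12.22), of striatum from 11.32 to 11.65 and of frontal cortex from 11.33 to 11.59. The arrays of the first pair of regions did not overlap those of the second. Amygdala stood 0.49 ± 0.03 above the other regions and frontal cortex at -0.53 ± 0.03 (limma adjusted p = 1.46e-18 and 1.80e-21). Of the hypothalamic markers, 3 of 4 were also higher in amygdala, with a mean level from -0.56 to 3.39 over its arrays, as were 4 of 4 meningeal (-0.77 to 1.45) and 3 of 4 microglial markers (-0.07 to 0.55). Of 5 astrocyte markers, 4 were higher in amygdala, 5 higher in hippocampus, 3 lower in frontal cortex and 5 lower in striatum. Their mean level ranged from -0.13 to 0.42, from 0.02 to 0.35, from -0.29 to -0.05 and from -0.29 to -0.18 in these regions. The part of these markers in the Adcyap1r1 values was not tested. Skap2 was highest in amygdala and accumbens, at 9.14 ± 0.29 and 9.09 ± 0.16 (SD, n = 12), and lowest in frontal cortex, at 8.42 ± 0.17.

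**Figure D5:**
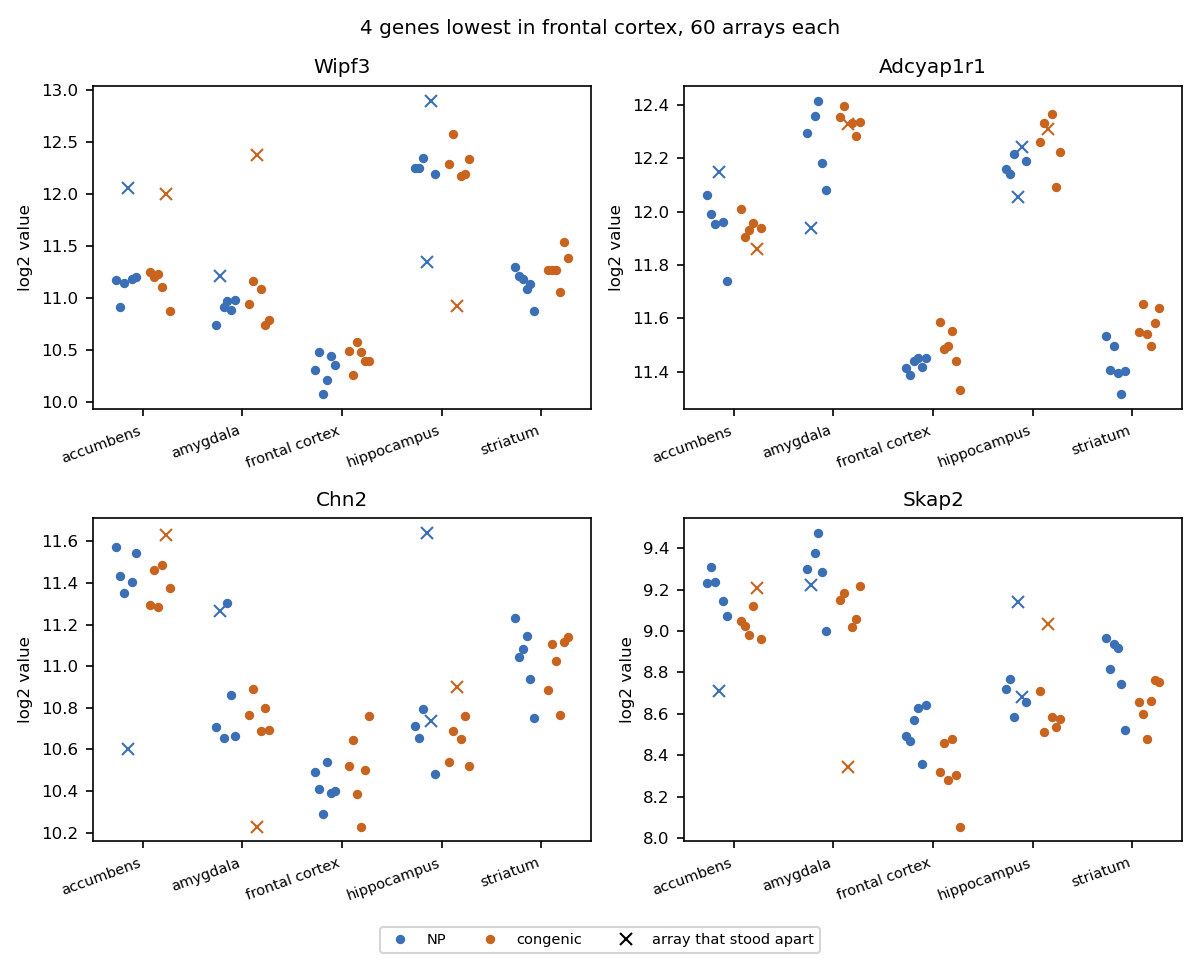
Log2 value of each of the 60 arrays (y axis) by labelled region (x axis) and line (colour) for Wipf3, Adcyap1r1, Chn2 and Skap2, with crosses for the 7 arrays that stood apart. Frontal cortex is the lowest region by mean in each panel, and the crosses of Wipf3 in hippocampus lie at 10.92, 11.34 and 12.90.

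Other members had their extremes elsewhere. Adck2, a kinase-like protein of mitochondria, read 9.41 ± 0.08 in striatum and between 8.68 and 8.87 on average in the other regions, and striatum stood 0.63 ± 0.05 above them (limma adjusted p = 3.55e-16). Its striatal arrays ran from 9.28 to 9.55. Ubn2 was highest in striatum, at 10.67 ± 0.18, and lowest in accumbens, at 9.78 ± 0.45 (SD, n = 12). Herc3 was highest in frontal cortex, at 11.48 ± 0.09, where it stood 0.47 ± 0.04 above the other regions (1389164_at, limma adjusted p = 8.40e-17), and lowest in amygdala, at 10.82 ± 0.11.

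Mrps33, a protein of the mitochondrial ribosome, Nup205 and Cul1 shared a low level in striatum. There they stood at -0.40 ± 0.03, -0.44 ± 0.04 and -0.35 ± 0.03 relative to the other regions. The Mrps33 arrays of striatum ran from 11.35 to 11.62, and those of the other 4 regions from 11.62 upwards. Nap1l5, a gene of the nucleosome assembly protein family, was highest in accumbens, at 13.26 ± 0.25, and Ptn likewise, at 13.52 ± 0.12, with its lowest level in hippocampus, at 13.04 ± 0.09. Cald1, which encodes the actin-binding protein caldesmon, was highest in accumbens, at 10.71 ± 0.38. With all arrays the lowest region of Nap1l5 and Cald1 was striatum, and without the 7 arrays it was hippocampus. Jazf1, Cnot4, Agk and Trim24 had the narrowest ranges of the tested genes with all arrays, between 0.12 and 0.19 log2 units. When the 7 arrays were left out Jazf1 spanned 0.14, Cnot4 0.25, Agk 0.26 and Trim24 0.31, and Tax1bp1 (0.21) and Plekha8 (1390395_at, 0.22) were narrower than the last 3.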

How the data were processed

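Each of 60 Affymetrix arrays holds the RNA of 1 region of 1 rat, from 12 rats and 5 regions. The deposited values are log2 probe-set values from 4.58 to 16.01, with array medians from 8.23 to 8.35. The authors' background correction and normalization are not given in the sources used here. No 2 arrays were identical. Precision of the line differences is limited by the number of animals, 6 of each line. Gene names came from the platform's annotation, updated by gene identifier to the GRCr8 gene table, which gave gene order.

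Probe sets under the 40th percentile of mean signal were dropped, which kept 18625 of 31042. The 5 log2 values of an animal were averaged and 6 congenic animals were compared with 6 NP animals in limma 3.58.1 (R 4.3.3), 2-sided, with Benjamini-Hochberg adjustment over all kept probe sets and calls at an adjusted p under 0.05. Regions were fitted on 12 arrays each, and the interaction and region tests on all 60. Scripts were tested on simulated data. Figures used matplotlib 3.10.9. Errors of differences are standard errors.

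Per the labels, arrays of 1 number come from the same animal, which pairs regions and not lines. The mean correlation of their deviations from the group means was 0.0139 for 120 pairs of arrays of 1 animal and -0.00627 for 600 pairs of different animals. An array stood apart where its correlations with the other arrays of its region had a median under 0.98, or where it correlated under 0.5 with that region's profile. These limits, and the alternative without the 7 arrays, were chosen after the data were seen.

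The members, gene lists and the rule for named genes were chosen with earlier results of these data known. The rule gave values for the 8 members with the smallest p between lines, the 12 widest and 4 narrowest regional ranges, the 4 smallest interaction p, the extremes of each group and members beside called genes. Alternatives covered normalization, centring, the filter, limma's trend, blocks and leaving out animals or regions.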

Additional observations from a re-analysis of the deposited data

Results flagged for a closer look

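In the NP line the animal means of Cnot4 hold 1 animal far from the others. NP animal 5 stood at 9.88 log2 units and the other 5 between 9.93 and 9.94, and the gap came to 0.745 of the whole range, above Dixon's critical value for 6 values. Of 70 groups looked at in this way, 1 was picked out, and chance picks out about 1 in 20.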

How the results depend on the processing

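Over 844 recomputed values, 836 kept their direction and side of the threshold, or stayed within 1.5 times the count. No alternative called a member between the lines, in the mean over regions or in a region. The adjusted p of Skap2 ranged from 0.0867 to 0.881. Non-overlapping member probe sets fell from 2 to 1 with arrays centred on their medians, and to 1 without the 7 arrays. Member probe sets lower in amygdala rose from 7 to 13 with no signal filter and to 11 without the 7 arrays. With the filter at the 60th percentile, those higher in accumbens fell from 16 to 10 and those lower in frontal cortex from 19 to 12, with fewer probe sets tested. Member probe sets higher in frontal cortex rose from 8 to 13 without the 7 arrays. For these alternatives the share of all probe sets was not counted. Leaving out 1 animal gave 6 to 12 member probe sets lower in hippocampus, the lowest without NP animal 6, against 10. With the animal as a replicate block, 43 member probe sets differed between regions and 0 between lines in any region, the same counts as in the main fits. The cause of these shifts was otherwise not tested. In the main fits probe sets under the signal filter were not tested, so differences in them can be missed there.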
